A study of Mus musculus with 12 samples.

Results

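The antiviral effector genes described here are 8 genes induced by interferon: Mx1, Mx2, Ifitm1, Ifitm2, Ifitm3, Bst2, Rsad2 and Xaf1. They were found on the array by the gene name of each probe, or by the current symbol of its RefSeq accession. Of the 8 genes, 7 had a probe, of 28781 gene names on the array, with 11 of its 41174 probes, and 10 of these were among the 26591 probes bright enough to be tested. Xaf1 had no probe under its own name.

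The study measured RNA of whole liver on 12 one-colour Agilent arrays, 4 per group. All animals were male C57BL/6 mice, 3 months old, that lack the glucocorticoid receptor (GR) in the liver. One group received AAV-hGRB, an adeno-associated virus that carries the human glucocorticoid receptor beta, another received AAV-GFP, the same kind of vector with a fluorescent protein, and the third received PBS, the salt buffer without vector. The design asks what the beta receptor does to transcription in livers without GR, with AAV-GFP as the control for the vector. GR loss is shared by all 3 groups, and no wild-type liver was analysed here. The vector's promoter and dose, the Cre line behind the knockout and the time between injection and sampling are among the details that the sources used here do not state.

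A level below is the log2 processed signal of a probe minus the 75th percentile of its array, so 0 is the signal of a probe at that percentile and 1 unit is a doubling. Levels of different probes were not compared with each other. Samples are numbered in the labels but not stated to be separate animals, so each p-value measures the spread between these samples. Of the 7 hepatocyte markers listed, 6 were on the array and all 6 were detected. Their summed linear signal on the 4 AAV-hGRB arrays ran between 1904 and 2537, that of AAV-GFP between 2284 and 2891 and that of PBS between 1897 and 2713, in units of the 75th-percentile signal. Taken singly, 5 of the 6 were lower in AAV-hGRB than the mean of both control groups. Their median log2 difference was -0.09, beside -0.06 over all probes. By limma 0 passed the adjusted threshold and 1 was lower at an unadjusted p under 0.05, beside 2.62% of all probes. AAV-GFP replicate 3 stood apart from the other arrays. Its log2 75th percentile was 7.71, against 8.45 to 9.22 elsewhere, and its mean correlation with the other arrays was 0.933, the lowest of the 12. Several results that rest on it are given with and without it. Differences against AAV-GFP within its slide have it as their only AAV-GFP array.

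Interferons are secreted when cells sense viral nucleic acid. They bind receptors that act through the kinases JAK1 and TYK2, and transcription factors then switch on a large set of genes through a promoter element called ISRE. The effector genes are the ones whose products stop the virus. Mx proteins are dynamin-like GTPases that trap viral nucleocapsids, IFITM proteins sit in membranes and hinder fusion of the incoming virus, BST2 (tetherin) holds budding particles at the cell surface, and RSAD2 (viperin) converts CTP into a chain-terminating nucleotide. XAF1 binds the apoptosis inhibitor XIAP and promotes cell death. Hepatocytes, Kupffer cells and other liver cells can all express such genes, and in whole liver fewer cells of a type and less RNA per cell cannot be told apart.

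Promoters are shown first so that a letter pattern of the interferon pathway can be read in them. Its relation to the sign of the estimates below was not tested. Windows from 250 bases before to 50 bases after the start of each gene were taken from RefSeq (GRCm38.p6), and 6 of the 8 genes had one. Mx1 and Mx2 are named only. Capitals mark the ISRE-like letters GAAANNGAAA, searched on both strands. Each window reads in the direction of its gene, which is the minus strand of the chromosome for Rsad2, Bst2, Ifitm3 and Ifitm2 and the plus strand for Ifitm1.
Rsad2, chr12:26456403-26456702: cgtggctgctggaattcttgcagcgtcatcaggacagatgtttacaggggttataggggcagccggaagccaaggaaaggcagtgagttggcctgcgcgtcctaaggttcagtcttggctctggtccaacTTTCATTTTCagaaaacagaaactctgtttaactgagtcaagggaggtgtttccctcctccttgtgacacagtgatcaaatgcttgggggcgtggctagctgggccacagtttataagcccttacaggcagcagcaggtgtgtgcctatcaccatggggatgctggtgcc
Bst2, chr8:71537423-71537722: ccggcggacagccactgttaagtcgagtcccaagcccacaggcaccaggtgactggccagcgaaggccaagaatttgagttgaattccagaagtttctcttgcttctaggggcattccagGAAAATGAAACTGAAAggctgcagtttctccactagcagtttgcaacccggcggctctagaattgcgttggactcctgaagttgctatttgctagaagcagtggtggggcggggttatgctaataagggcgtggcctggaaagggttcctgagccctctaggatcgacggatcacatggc
Ifitm3, chr7:141010695-141010994: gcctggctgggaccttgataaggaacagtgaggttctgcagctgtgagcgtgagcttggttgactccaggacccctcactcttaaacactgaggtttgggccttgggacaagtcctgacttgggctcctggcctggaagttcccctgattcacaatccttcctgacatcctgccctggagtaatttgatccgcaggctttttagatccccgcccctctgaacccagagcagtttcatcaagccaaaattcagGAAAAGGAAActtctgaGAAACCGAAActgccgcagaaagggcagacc
Ifitm2, chr7:140955912-140956211: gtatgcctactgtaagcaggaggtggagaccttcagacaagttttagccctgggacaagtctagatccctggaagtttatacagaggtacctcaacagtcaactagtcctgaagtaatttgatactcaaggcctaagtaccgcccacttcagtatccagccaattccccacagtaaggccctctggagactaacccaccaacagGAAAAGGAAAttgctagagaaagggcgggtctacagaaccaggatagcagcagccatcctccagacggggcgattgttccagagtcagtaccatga
Ifitm1, chr7:140967826-140968125: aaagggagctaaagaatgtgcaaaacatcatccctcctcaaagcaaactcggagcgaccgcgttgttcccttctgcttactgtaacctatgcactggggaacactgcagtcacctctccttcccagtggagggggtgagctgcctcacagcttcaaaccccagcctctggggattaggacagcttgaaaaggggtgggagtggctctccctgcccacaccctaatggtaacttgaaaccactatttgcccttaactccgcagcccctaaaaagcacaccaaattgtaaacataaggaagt

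The ISRE-like pattern occurred in 1131 of 32851 promoter windows of all genes (3.44%) and in 4 of the 6 member windows. Bst2 held 2 overlapping matches and Ifitm3 held 2 separate ones. Ifitm2 and Rsad2 held 1 each, on the opposite strand in Rsad2. The pattern was not in the windows of Ifitm1 and Xaf1. The glucocorticoid response element in its palindromic form occurred in 3 of all 32851 windows and in 0 of the 6. A match describes letters and not a bound site.

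In AAV-hGRB livers, the RNA levels of 5 of the 7 measured genes averaged above both control groups: Rsad2, Mx1, Mx2, Bst2 and Ifitm3. Ifitm2 and Ifitm1 averaged below both. None of these differences passed the test across all probes. The median log2 difference of the 7 genes was 0.69 against AAV-GFP and 0.97 against PBS, beside medians of -0.05 and -0.06 over all 26591 tested probes. Without Mx1, which passed the detection filter only through its AAV-hGRB arrays, the medians of the other 6 genes were 0.55 and 0.82. Between AAV-GFP and PBS the median of the 7 genes was 0.03, beside 0.004 over all probes.

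The plot of levels on each array shows the 10 tested probes.

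**Figure D1:**
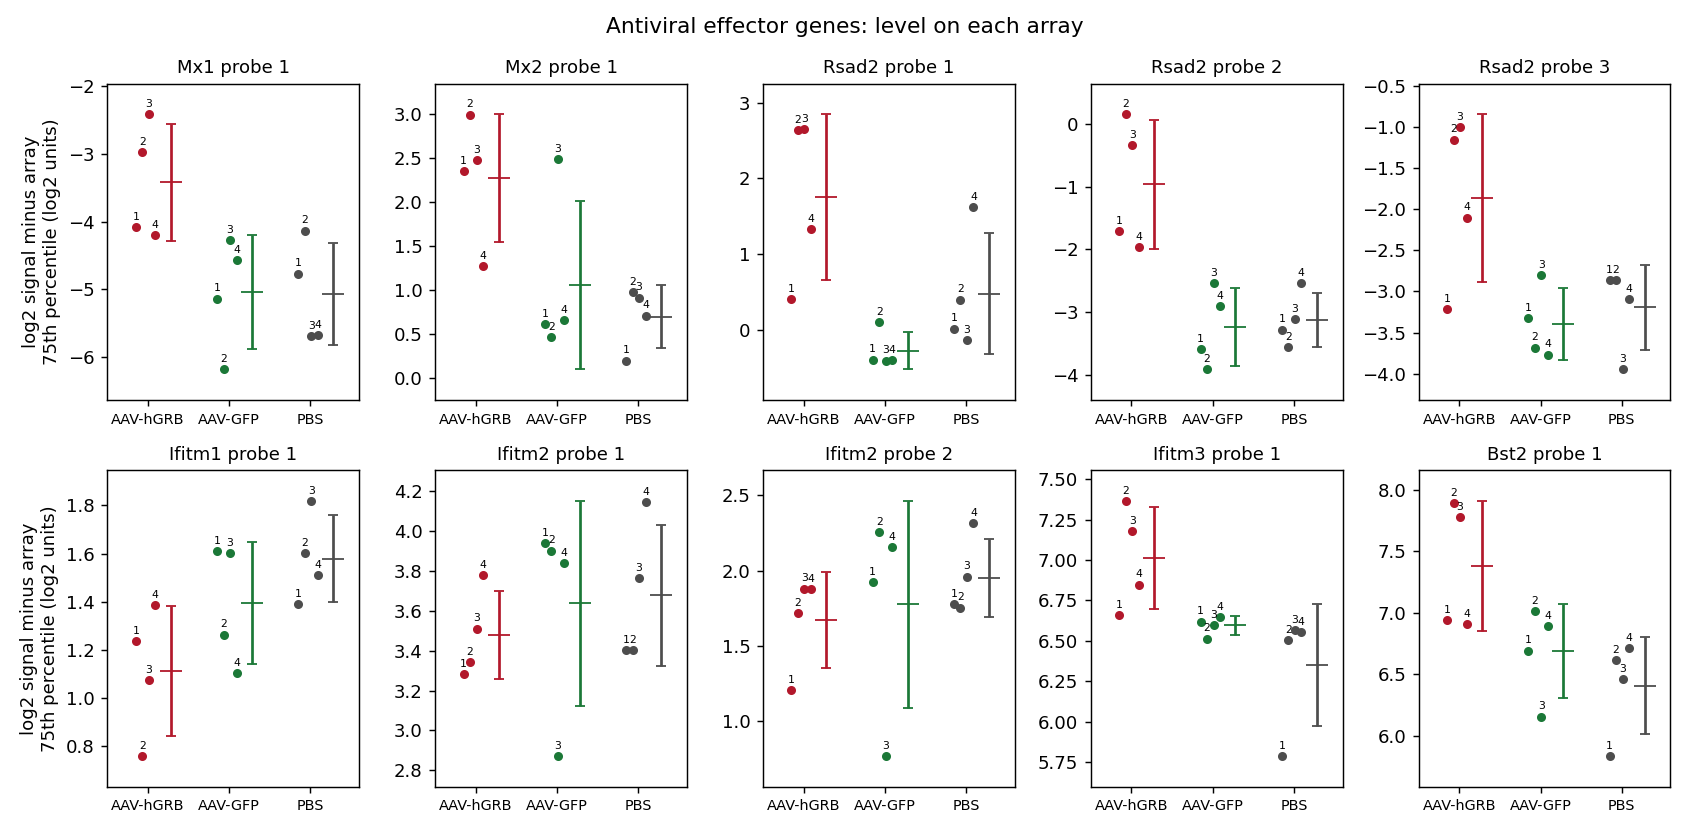
Level of each tested probe (vertical axis, log2 signal minus the array's 75th percentile, on a scale of its own in each panel) on the 4 arrays each of AAV-hGRB, AAV-GFP and PBS livers. Points are arrays numbered by replicate, and the bar beside them is the mean with its SD. AAV-hGRB replicates 2 and 3 are the highest points for Mx1, Rsad2, Ifitm3 and Bst2, the 3 Ifitm2 groups overlap, and the Ifitm1 points of AAV-hGRB lie below those of PBS.

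Rsad2 (chr12:26442743-26456452, minus strand, GRCm38.p6) encodes viperin and was read by 3 probes, of which probe 1 was the brightest and stands for the gene in the counts. Probes 2 and 3 span introns, over chr12:24286540-24289841 and chr12:24281379-24284417 of the array design's build mm7, so that they match the spliced message. Their sequences are shown as what was hybridised for this gene.
Rsad2 probe 2: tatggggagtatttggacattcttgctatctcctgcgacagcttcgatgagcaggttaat
Rsad2 probe 3: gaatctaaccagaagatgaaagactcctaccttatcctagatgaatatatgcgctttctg

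On Rsad2 probe 1 the levels were 0.40, 2.63, 2.65 and 1.33 in AAV-hGRB livers. They were -0.40, 0.10, -0.41 and -0.40 in AAV-GFP livers and 0.02, 0.40, -0.13 and 1.63 in PBS livers. All 4 AAV-hGRB arrays lay above all AAV-GFP arrays, but PBS replicate 4 lay above AAV-hGRB replicates 1 and 4. The difference was 2.03 against AAV-GFP (SE 0.50, 4.09-fold, 95% interval 1.91 to 8.75, limma adjusted p = 0.811). Against PBS it was 1.28 (SE 0.50, 2.43-fold, limma adjusted p = 0.827). AAV-GFP stood below PBS by 0.75 on this probe, with a 95% interval of -1.85 to 0.35 that includes 0.

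Rsad2 probe 2 had the largest differences and the lowest p of the 10 member probes in both comparisons of AAV-hGRB. Its levels were -1.70, 0.16, -0.34 and -1.97 in AAV-hGRB livers, against -3.59, -3.92, -2.54 and -2.91 in AAV-GFP livers and -3.28, -3.56, -3.12 and -2.54 in PBS livers. The AAV-hGRB arrays did not overlap with either control group. The difference was 2.28 against AAV-GFP (SE 0.47, 4.85-fold, 95% interval 2.38 to 9.89, limma adjusted p = 0.549), which ranked this probe 19 of all probes by p. Against PBS it was 2.16 (SE 0.47, 4.47-fold, 95% interval 2.19 to 9.13, limma adjusted p = 0.402). Against the mean of both control groups its limma adjusted p was 0.161, the lowest of the members.

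On Rsad2 probe 3 the levels were -3.21, -1.16, -1.002 and -2.10 in AAV-hGRB livers, -3.32, -3.68, -2.80 and -3.77 in AAV-GFP livers and -2.87, -2.86, -3.95 and -3.09 in PBS livers. AAV-hGRB replicate 1 lay within both control groups on this probe. The difference was 1.53 against AAV-GFP (2.88-fold) and 1.32 against PBS (2.50-fold). The 3 probes therefore had the same sign but differed on where replicate 1 lies.

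The 12 arrays lie on 6 slides, and slides 5 and 6 hold 1 array of every group. On slide 5, which carries AAV-hGRB replicate 1, the Rsad2 difference against AAV-GFP was 0.30, 2.21 and 0.47 on probes 1 to 3, and against PBS it was -1.22, 0.84 and -0.12. On slide 6, with AAV-hGRB replicate 3, it was 3.06, 2.20 and 1.80 against AAV-GFP and 2.79, 2.78 and 2.95 against PBS. The difference against PBS thus did not hold within slide 5 on 2 of the 3 probes. With slide as a block, probe 1 stood at 1.66 against AAV-GFP and 0.80 against PBS. The AAV-GFP array of slide 6 is replicate 3, the array that stood apart. Every difference against AAV-GFP within slide 6, here and below, rests on it.

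Mx1 (chr16:97447035-97462906, GRCm38.p6) encodes a nuclear GTPase that blocks influenza viruses in mice. In RefSeq's assembly, which is of C57BL/6J, both Mx1 and Mx2 are annotated as transcribed pseudogenes, and the probes read their RNA. Mx1 was dim. Probe 1 was well above background on 4 of 4 AAV-hGRB arrays, 1 of 4 AAV-GFP arrays and 2 of 4 PBS arrays. The 3 control arrays alone would not have passed the filter of 4 arrays, so Mx1 was tested only through the AAV-hGRB arrays. Probe 2 was detected on 0 of 12 arrays and was not tested.

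On Mx1 probe 1 the levels were -4.08, -2.98, -2.41 and -4.20 in AAV-hGRB livers. They were -5.14, -6.18, -4.27 and -4.56 in AAV-GFP livers and -4.77, -4.13, -5.69 and -5.67 in PBS livers. AAV-hGRB lay above every AAV-GFP array, by a small gap between AAV-hGRB replicate 4 and AAV-GFP replicate 3, and PBS replicate 2 lay within the AAV-hGRB range. The difference was 1.62 against AAV-GFP (SE 0.52, limma adjusted p = 0.998) and 1.65 against PBS (SE 0.52, limma adjusted p = 0.786). No fold is given, because 3 of 4 AAV-GFP arrays and 2 of 4 PBS arrays were not well above background. Within slides 5 and 6 the difference was 2.11 and 1.86 against AAV-GFP and 1.59 and 3.27 against PBS. On these slides Mx1 was well above background on no control array, so the values compare signal with background. With normexp background correction the Mx1 differences were 0.44 and 0.48.

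Mx2 (chr16:97536081-97560901, GRCm38.p6), whose protein acts in the cytoplasm where it is functional, was well above background on all 12 arrays. Its levels were 2.36, 3.00, 2.48 and 1.27 in AAV-hGRB livers, against 0.62, 0.47, 2.49 and 0.66 in AAV-GFP livers and 0.20, 0.98, 0.92 and 0.71 in PBS livers. The AAV-hGRB arrays lay above all PBS arrays and above 3 of 4 AAV-GFP arrays. The exception was AAV-GFP replicate 3, the array that stood apart. The difference was 1.22 against AAV-GFP (SE 0.46, 2.32-fold, 95% interval 1.16 to 4.67, limma adjusted p = 0.998) and 1.70 without that array (adjusted p = 0.399). Against PBS it was 1.58 (SE 0.46, 2.98-fold, 95% interval 1.48 to 5.99, limma adjusted p = 0.662).

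Within slide 5 the Mx2 difference was 1.89 against AAV-GFP and 1.65 against PBS. Within slide 6, which holds AAV-GFP replicate 3, it was -0.02 against AAV-GFP and 1.56 against PBS. With array weights, which give less weight to arrays that depart from their group, Mx2 passed the threshold against the mean of both control groups (1.64, limma adjusted p = 0.0439). Over all settings run for that comparison its adjusted p ran from 0.0439 to 1.00.

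Bst2 (chr8:71534255-71537472, minus strand, GRCm38.p6) encodes tetherin, which is also a surface marker of plasmacytoid dendritic cells in mice. Its levels were 6.94, 7.90, 7.78 and 6.91 in AAV-hGRB livers, 6.69, 7.02, 6.16 and 6.89 in AAV-GFP livers and 5.83, 6.62, 6.46 and 6.71 in PBS livers. The AAV-hGRB arrays lay above all PBS arrays, and AAV-GFP replicate 2 lay above AAV-hGRB replicates 1 and 4. The difference was 0.69 against AAV-GFP (SE 0.30, 1.61-fold, 95% interval 1.02 to 2.55, limma adjusted p = 0.998) and 0.51 without AAV-GFP replicate 3. Against PBS it was 0.97 (SE 0.30, 1.97-fold, 95% interval 1.24 to 3.11, limma adjusted p = 0.761). Within slide 5 it was -0.08 against AAV-GFP and 0.23 against PBS, and within slide 6 it was 1.62 and 1.32.

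The Ifitm genes had estimates of both signs. Ifitm1, Ifitm2 and Ifitm3 lie within chr7:140954837-141010744 (GRCm38.p6). Ifitm3, the broadest restriction factor of the family, was bright on every array. Its levels were 6.66, 7.36, 7.18 and 6.85 in AAV-hGRB livers, 6.62, 6.51, 6.60 and 6.65 in AAV-GFP livers and 5.79, 6.50, 6.57 and 6.55 in PBS livers. The AAV-hGRB arrays lay above all 8 control arrays, though AAV-hGRB replicate 1 exceeded AAV-GFP replicate 4 by only the last printed digit. The difference was 0.42 against AAV-GFP (SE 0.23, 1.34-fold, 95% interval 0.951 to 1.88, limma adjusted p = 0.998) and 0.66 against PBS (SE 0.23, 1.58-fold, 95% interval 1.12 to 2.22, limma adjusted p = 0.815). Within slide 5 the 2 differences were 0.15 and 0.11, and within slide 6 they were 0.58 and 0.61. With slide as a block the difference against PBS was 0.38.

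Ifitm2, which restricts viruses that fuse in late endosomes, had levels on probe 1 of 3.28, 3.34, 3.51 and 3.78 in AAV-hGRB livers. They were 3.94, 3.90, 2.87 and 3.84 in AAV-GFP livers and 3.40, 3.40, 3.76 and 4.14 in PBS livers. All 3 groups overlapped. The difference was -0.16 against AAV-GFP (95% interval -0.75 to 0.43, limma adjusted p = 0.998), or -0.41 without AAV-GFP replicate 3, and -0.20 against PBS (95% interval -0.79 to 0.39, limma adjusted p = 0.960). Probe 2 gave -0.11 and -0.28, and its design position, chr7:43008745-43008804 in mm7, lies away from the Ifitm cluster. The upper bounds of both intervals of probe 1 correspond to 1.35-fold and 1.31-fold, below the estimates for Rsad2, Mx2 and Bst2. Within slide 5 the probe 1 difference was -0.62 against AAV-GFP and -0.86 against PBS, and within slide 6 it was 0.64 and -0.25. The value of 0.64 rests on AAV-GFP replicate 3, at 2.87 the lowest of the AAV-GFP arrays.

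Ifitm1, which acts mainly at the cell surface, had levels of 1.24, 0.76, 1.07 and 1.39 in AAV-hGRB livers, 1.61, 1.26, 1.60 and 1.11 in AAV-GFP livers and 1.39, 1.60, 1.82 and 1.51 in PBS livers. Its lowest array was AAV-hGRB replicate 2, the array with the highest Bst2, Ifitm3 and Mx2. The difference was -0.28 against AAV-GFP (95% interval -0.72 to 0.16, limma adjusted p = 0.998) and -0.47 against PBS (95% interval -0.91 to -0.03, unadjusted p = 0.0398, limma adjusted p = 0.842). All 4 AAV-hGRB arrays lay below all 4 PBS arrays, though AAV-hGRB replicate 4 and PBS replicate 1 are the same as printed, and AAV-hGRB overlapped with AAV-GFP. Within slide 5 it was -0.03 against AAV-GFP and -0.27 against PBS, and within slide 6 it was -0.53 and -0.74.

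The other Ifitm genes on the array were given the same comparison. Ifitm6 stood at 0.60 against AAV-GFP and 0.49 against PBS, and Ifitm7, which lies on chromosome 16, at 0.60 and 0.68. Ifitm5, the bone member of the family, stood at -0.62 and -0.15. The limma adjusted p of these 3 genes lay between 0.837 and 0.998 in both comparisons. Ifitm10 was well above background on 0 of 12 arrays.

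The plot of group differences sets the intervals of these probes side by side.

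**Figure D2:**
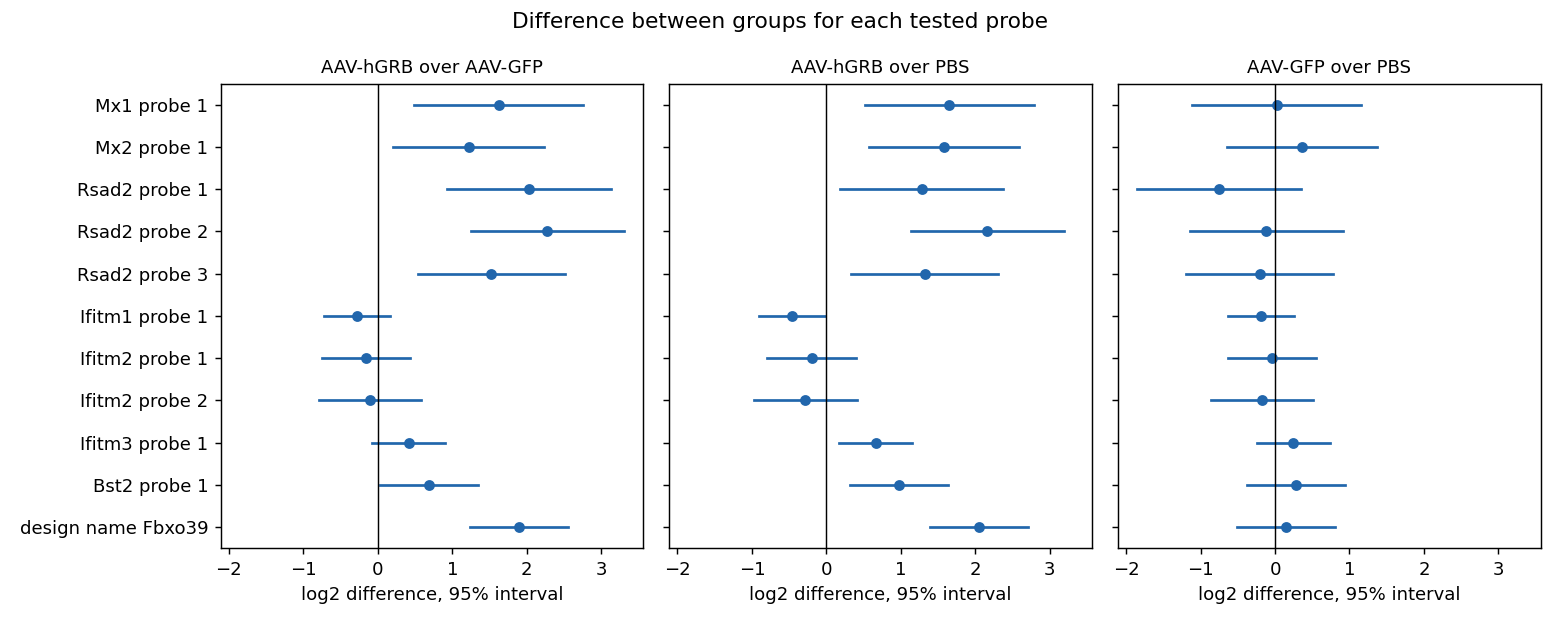
Log2 difference (horizontal axis) with its 95% interval from the limma fit for the 10 tested member probes and the probe that the array design names Fbxo39, in AAV-hGRB over AAV-GFP, AAV-hGRB over PBS and AAV-GFP over PBS. The intervals of Mx1, Mx2, Rsad2 and Bst2 lie to the right of 0 in both AAV-hGRB panels. The estimates of Ifitm1 and Ifitm2 lie to its left there, but their intervals include 0, except that of Ifitm1 against PBS. Every interval of AAV-GFP over PBS includes 0.

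Xaf1 (chr11:72301461-72313733, plus strand, GRCm38.p6) could not be measured under its own name. The neighbouring gene Fbxo39 (chr11:72314444-72319419) starts 710 bases after it, and RefSeq lists Fbox39 as a synonym of Xaf1. One probe that the array design names Fbxo39 spans an intron at chr11:72388201-72390214 in mm7, and its accession has no entry in the gene table. Which gene it reads was not settled, so its values stand outside the counts of members. Its sequence is shown so that the target can be looked up.
Probe named Fbxo39: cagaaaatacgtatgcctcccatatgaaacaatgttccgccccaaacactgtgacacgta

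On the probe named Fbxo39 the levels were 1.12, 2.50, 2.00 and 1.24 in AAV-hGRB livers, against -0.31, -0.46, 0.05 and -0.03 in AAV-GFP livers and -0.77, -0.29, -0.24 and -0.05 in PBS livers. The AAV-hGRB arrays lay above all control arrays by more than 1 log2 unit. The difference was 1.90 against AAV-GFP (SE 0.30, 3.73-fold, 95% interval 2.36 to 5.88, limma adjusted p = 0.310), rank 3 of all probes by p. Against PBS it was 2.05 (SE 0.30, 4.14-fold, 95% interval 2.63 to 6.54, limma adjusted p = 0.164). Against the mean of both control groups its limma adjusted p was 0.0570. Within slide 5 it was 1.58 against AAV-GFP and 1.16 against PBS, and within slide 6 it was 1.94 and 2.24.

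Counted over genes, 0 of the 7 members passed limma's adjusted threshold of 0.05 in AAV-hGRB over AAV-GFP, where 0% of all probes passed. At an unadjusted p under 0.05, 4 of the 7 were higher (Mx1, Mx2, Bst2 and Rsad2), beside 1.84% of all probes. The groups did not overlap, with AAV-hGRB higher, for 3 of the 7 (Mx1, Ifitm3 and Rsad2), beside 1.05% of all probes. Without AAV-GFP replicate 3, and also without AAV-GFP replicate 2, the last count was 4. Mx1 entered these counts through its AAV-hGRB arrays. Over the 6 genes that pass the filter on control arrays alone, the 2 counts were 3 and 2. In the lower direction 0 of 7 had an unadjusted p under 0.05, beside 1.51% of all probes, and 0 of 7 were without overlap, beside 1.94%. Without AAV-GFP replicate 3 the last count was 1, which was Ifitm2.

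In AAV-hGRB over PBS, which shares the AAV-hGRB arrays, 0 of 7 passed, where 0% of all probes passed. At an unadjusted p under 0.05, 5 of 7 were higher (Mx1, Mx2, Ifitm3, Bst2 and Rsad2), beside 2.86% of all probes. The groups did not overlap, with AAV-hGRB higher, for 3 of 7 (Mx2, Ifitm3 and Bst2), beside 2.14%. Without Mx1 these counts were 4 of 6 and 3 of 6. In the lower direction, Ifitm1 was the 1 of 7 with an unadjusted p under 0.05, beside 2.98% of all probes, and the 1 of 7 without overlap, beside 2.45%. Against the mean of both control groups 0 of 7 passed, where 0.00376% of all probes passed, which is 1 probe. At an unadjusted p under 0.05, 5 of 7 were higher, beside 2.97% of all probes, and 4 of 6 without Mx1. By the brightest probe of each gene, Ifitm3 was the 1 of 7 higher than every control array, beside 0.523% of all probes. Rsad2 probe 2, which does not stand for its gene in the counts, also lay above every control array. The count of genes was 2 without AAV-GFP replicate 3, and also without AAV-hGRB replicate 4, AAV-GFP replicate 2, PBS replicate 2 or PBS replicate 4. In the lower direction 0 of 7 had an unadjusted p under 0.05, beside 2.62%, and 0 of 7 were without overlap, beside 0.301%.

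In AAV-GFP over PBS 0 of 7 passed, where 0% of all probes passed. At an unadjusted p under 0.05, 0 of 7 were higher, beside 0.794% of all probes, and no member was higher without overlap, beside 0.583%. In the lower direction both counts were 0 of 7, beside 0.891% and 0.357%. Without AAV-GFP replicate 2, Ifitm3 was higher and Rsad2 lower without overlap. Differences ran between -0.75 for Rsad2 and 0.36 for Mx2, with 4 of 7 positive and a limma adjusted p of 0.999 throughout. For each of the 10 tested probes the AAV-GFP and PBS arrays overlapped, so the order of these 2 groups was not resolved for any member. The signs of Mx1, Mx2 and Ifitm2 in this comparison turned under some settings.

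**Figure D3:**
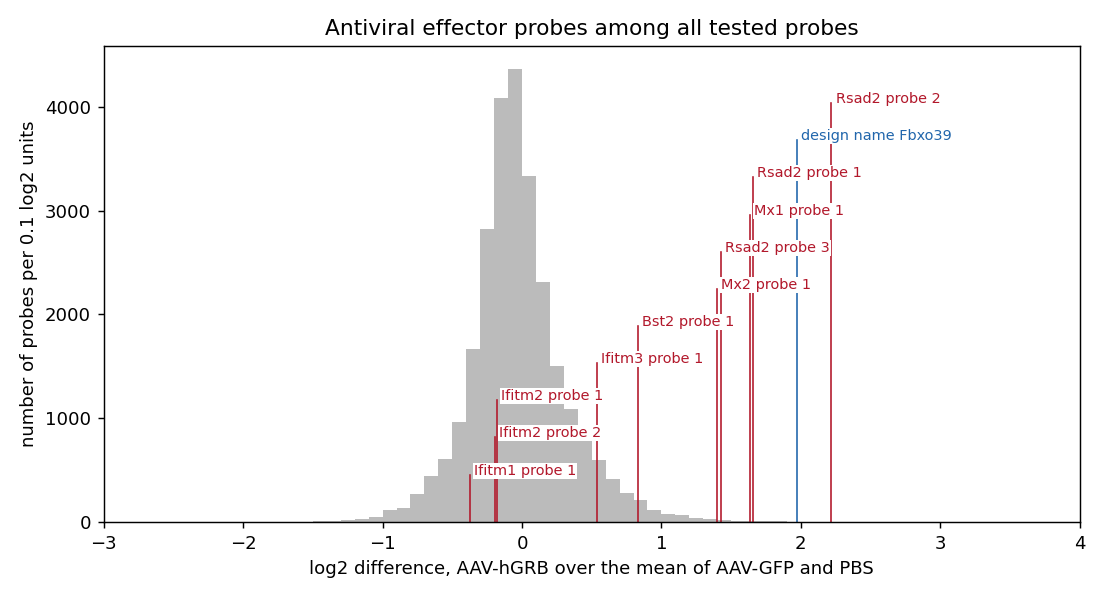
Number of tested probes (vertical axis) by log2 difference of AAV-hGRB over the mean of AAV-GFP and PBS (horizontal axis, bins of 0.1, grey bars), with the 10 member probes in red and the probe named Fbxo39 in blue. The height of a coloured line only makes room for its label. Ifitm1 and Ifitm2 sit within the bulk of the probes, and the Rsad2 probes, Mx1 and Mx2 sit in the right tail.

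The size of the difference varied among the AAV-hGRB livers. The 7 genes averaged 2.80 ± 0.42 in AAV-hGRB livers, against 2.01 ± 0.12 in AAV-GFP livers and 2.02 ± 0.25 in PBS livers (SD, n = 4 each). In AAV-hGRB it was 2.40, 3.15, 3.18 and 2.48 on replicates 1 to 4, and the highest control array was PBS replicate 4 at 2.23. This mean includes Mx1, which passed the detection filter only through its AAV-hGRB arrays. Without Mx1 the mean of AAV-hGRB replicate 1 lies below that of PBS replicate 4, so the groups overlap. Of the 5 genes with a positive difference against both control groups, 4 had AAV-hGRB replicates 2 and 3 as their 2 highest arrays. For Mx2 the first was AAV-hGRB replicate 2, followed by AAV-GFP replicate 3 and AAV-hGRB replicate 3. AAV-hGRB replicates 2 and 3 come from different slides, 3 and 6, and replicate 4 shares slide 3 with replicate 2. Slide 3 holds no control array, so replicates 2 and 4 could not be compared with a control on their own slide.

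**Figure D4:**
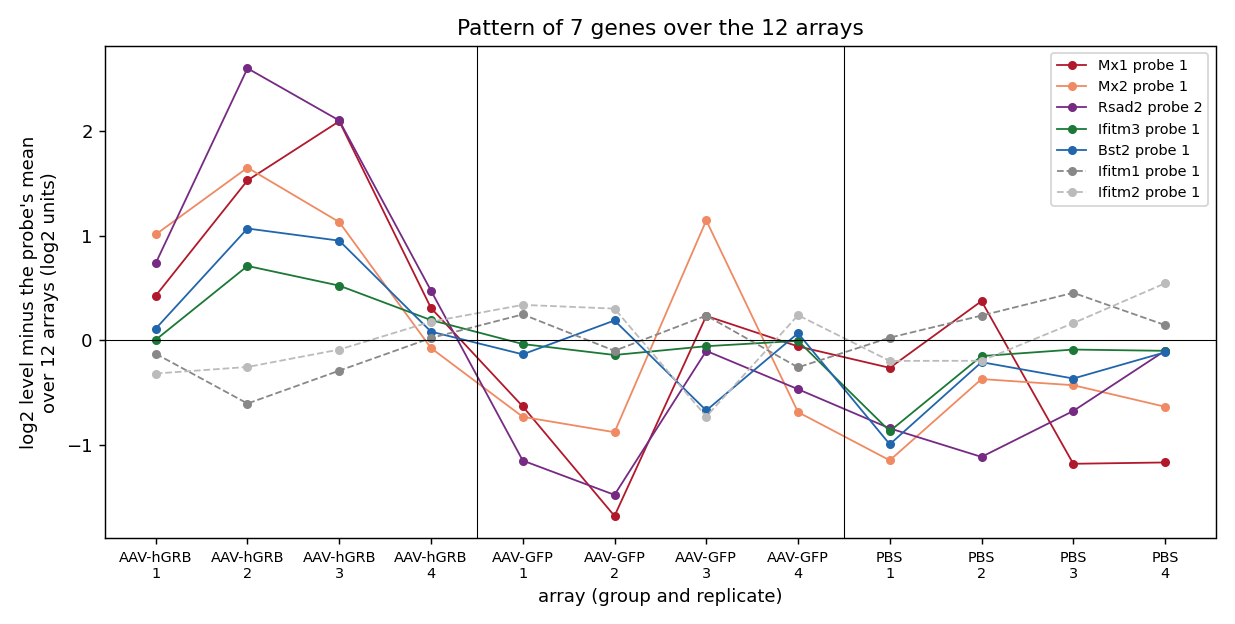
Level of 7 genes on each array after subtracting the mean of that probe over the 12 arrays (vertical axis, log2 units), with Rsad2 shown by probe 2. Lines join the points of a gene to guide the eye, and dashed grey lines are Ifitm1 and Ifitm2. Arrays AAV-hGRB 2 and 3 are high for the 5 other genes, Mx2 is also high on AAV-GFP 3, and Ifitm1 is lowest on AAV-hGRB 2.

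Across the 12 arrays, Pearson's r of the 10 pairs among the 5 genes with positive differences lay between 0.54 and 0.90. These genes were picked because they averaged higher in AAV-hGRB livers, which by itself raises r over all arrays. Bst2 and Ifitm3 had the highest r of all pairs, at 0.90, and Bst2 and Ifitm1 the lowest, at -0.75. After subtracting each group's mean, r of the 10 pairs lay between 0.07 and 0.79. These values describe genes read on the same 12 arrays, which share RNA, labelling and scaling. Genes outside the members were ranked by r with the members' mean profile, Mx1 included, and predicted and clone names were skipped. The 10 highest were Gvin1 (r = 0.98), Ifit3 (0.98), Ifi44 (0.97), Oas1a (0.96), Ifit1 (0.96), Oasl2 (0.96), Rtp4 (0.96), the probe named Fbxo39 (0.96), Cmpk2 (0.96) and Isg15 (0.95), over 12 arrays each. After subtracting each group's mean, their r lay between 0.85 and 0.95. Whether the probe named Fbxo39 reads a gene outside the members was not settled.

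The rest of the pathway was described by gene lists. Of 28 tested interferon-induced genes outside the members, 28 had a positive difference in AAV-hGRB over AAV-GFP (median 1.46, 0 passing the adjusted threshold, 24 at an unadjusted p under 0.05) and 28 in AAV-hGRB over PBS (median 1.61, 0 passing, 26 unadjusted). In AAV-GFP over PBS 17 of 28 were positive, with a median of 0.07. Irf7, the factor that amplifies the interferon response, stood 5.62-fold over AAV-GFP and 5.33-fold over PBS. Usp18, which removes ISG15 from proteins, stood at 4.68-fold and 5.19-fold, and Samd9l, a growth and translation inhibitor, at 3.34-fold and 3.76-fold. None of these 3 passed (limma adjusted p = 0.164 to 0.310).

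Other antiviral effectors had smaller medians. Of 12 tested, 10 were positive against AAV-GFP (median 0.41, 0 passing, 1 at an unadjusted p under 0.05) and 11 against PBS (median 0.53, 0 passing, 4 unadjusted). The one with an unadjusted p under 0.05 against AAV-GFP was Trim30a, an interferon-induced TRIM protein, at 3.65-fold and, against PBS, 4.63-fold. Samhd1, which degrades deoxynucleotides, stood at 1.35-fold and 1.53-fold. Zc3hav1, which targets viral RNA, stood at 1.51-fold and 1.62-fold.

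Most interferon ligands did not pass the detection filter. Of 8 interferon genes on the array 3 were tested, and 0 passed or had an unadjusted p under 0.05 in any comparison. Ifna1 stood at 0.02 against AAV-GFP and -0.60 against PBS, Ifng at 0.26 and 0.68, and Ifnl3 at -0.37 and 0.12. Among 10 receptors and signalling genes, 0 had an unadjusted p under 0.05, with medians of 0.06 and 0.07. Socs1, a feedback inhibitor of JAK kinases, stood at 0.39 and 0.29, and Socs3 at -0.27 and -0.40. Jak2 stood at 0.20 and 0.26, and Tyk2 at 0.27 and 0.13. Among 9 sensors and adaptors 0 passed, and the median was 0.00 against AAV-GFP and 0.02 against PBS. Tlr7, the receptor for single-stranded RNA, stood at 0.75 and 1.05, and Tlr3, the receptor for double-stranded RNA, at 0.87 and 0.61. Ticam1 stood at -0.02 and -0.39, and Irf3 at -0.40 and -0.08. At an unadjusted p under 0.05, Tlr7 and Tlr3 were higher against AAV-GFP. Against PBS, Tlr7 was higher and Ticam1 lower at that threshold.

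Among genes next to the members on the chromosome, Cmpk2 and the probe named Fbxo39 were the ones whose AAV-hGRB arrays lay above all control arrays. Of 31 neighbours, 26 were on the array and 21 were tested, and 5 of these had a positive difference against the mean of both control groups (median -0.13, 0 passing). The probe named Fbxo39 is counted here as the neighbour of Xaf1, though which of these genes it reads was not settled. Cmpk2, a mitochondrial nucleotide kinase that is itself interferon-induced, begins 12664 bases from Rsad2. It stood at 1.95 against AAV-GFP and 2.06 against PBS (limma adjusted p = 0.549 and 0.277).

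Markers of other liver cells were read beside the members. All 8 Kupffer cell and macrophage markers were positive in AAV-hGRB over AAV-GFP, in AAV-hGRB over PBS and in AAV-GFP over PBS, with medians of 0.30, 0.62 and 0.28 and 0 passing. Their summed signal on replicates 1 to 4 was 98.8, 177, 203 and 130 in AAV-hGRB livers, against 83.5, 133, 124 and 171 in AAV-GFP livers and 38.9, 92.2, 119 and 152 in PBS livers. The summed signal was highest on AAV-hGRB replicates 3 and 2, the arrays with the highest member levels, and the markers were also positive in AAV-GFP over PBS, where the median difference of the members was 0.03. Its part in the result was not tested.

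T cell and NK cell markers summed to 4.91, 7.69, 13.9 and 7.71 in AAV-hGRB livers, 4.01, 4.09, 6.61 and 3.62 in AAV-GFP livers and 2.84, 5.30, 6.34 and 5.70 in PBS livers. Of 9 tested, 6 were positive against AAV-GFP and 5 against PBS. Their log2 differences ran from -0.66 to 1.52 against AAV-GFP and from -0.50 to 1.26 against PBS, so the markers did not move as 1 set. The part of these cells in the result was not tested. Plasmacytoid dendritic cell markers, relevant to Bst2, summed to 3.15 to 3.62 in AAV-hGRB livers, 2.91 to 3.78 in AAV-GFP livers and 3.17 to 3.77 in PBS livers, and the defining marker Siglech was never well above background. Neutrophil markers summed to 4.07 to 9.38 in AAV-hGRB livers, 1.75 to 6.09 in AAV-GFP livers and 6.50 to 9.11 in PBS livers. The neutrophil sums of AAV-hGRB overlapped with those of both control groups, while those of AAV-GFP lay below those of PBS. For B cell, conventional dendritic cell, endothelial cell and stellate cell markers the summed ranges of all 3 groups overlapped. The part of these cells in the result was not tested.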

How the data were processed

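Liver RNA of 12 samples, 4 each from mice given AAV-hGRB, AAV-GFP or PBS, was read on one-colour Agilent arrays. Extraction used an RNeasy midi column with a DNase step, and the label was Cy3, per the labels' protocols. Intensity of each spot, linear and not yet on a log scale, was deposited as scanner output, per the file headers of Agilent Feature Extraction 9.5.3.1 (9.5 in the submitters' processing notes), after background subtraction and spatial detrending. The deposited series matrix holds the same intensity values (540216 compared, the largest relative difference 0), with no centring or log, and was not used further.

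Control spots (1639 per array) were left out, spots of a probe were averaged, and the array's 75th percentile of the log2 values was subtracted. Probes well above background on at least 4 of 12 arrays were tested (26591), and 14583 were not. Gene names come from RefSeq (GRCm38.p6) through a probe's systematic name (22951 probes) or another accession (131), and otherwise from the array design (18092). A gene with several probes is represented by the brightest one on average. Probe positions are in mm7 as the files give them.

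One model of limma 3.58.1 (R 4.3.3, statmod 1.5.0, and version 1.17.8 of data.table) was fitted to the 12 arrays, with 3 groups and 9 residual degrees of freedom. Tests of the 4 comparisons, which share arrays, were two-sided. P-values were adjusted over the tested probes by Benjamini-Hochberg, at a threshold of 0.05. The fit was tested on simulated data with known changes in AAV-hGRB. Of 100 probes raised by 1 log2 unit, 27 passed against AAV-GFP and 28 against PBS. Of 100 raised by 2 units, 65 and 67 passed. In each of these comparisons 3 unchanged probes passed. Genes named are all members and all their probes, other Ifitm genes, up to 4 genes per pathway list by p, and neighbours without overlap. The 10 genes most like the members' mean profile are also named, with predicted and clone names skipped. One list gene and 1 promoter pattern are not reported here. The members and lists were chosen with earlier results of these data known.

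The number of arrays limits the precision, with a median SE of 0.31 log2 units for a difference of 2 groups. Alternatives were normexp background correction with an offset of 50, quantile and median scaling, other filters on dim probes, slide and replicate blocks, array weights, only the groups compared, and leaving out each array. Counts of members without overlap were repeated leaving out each array, and counts of higher members over the genes that pass the filter on control arrays alone. Both were chosen after seeing the data.

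Samples with the same replicate number did not deviate together: of 12 pairs 5 had a correlation over 0.1, with a range of -0.43 to 0.59. The numbers were therefore not taken to pair the samples.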

Additional observations from a re-analysis of the deposited data

Results flagged for a closer look

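In 4 of 33 groups of 4 arrays, 1 array lay far from the other arrays of its group, measured as its gap to the nearest array divided by the group's whole range and compared with Dixon's 95% critical value. Chance alone gives this in about 1 of 20 groups. Mx2 stood at 2.49 on AAV-GFP replicate 3, against 0.47 to 0.66 on the other AAV-GFP arrays (gap ratio 0.905). Ifitm2 probe 1 stood at 2.87 on the same array, against 3.84 to 3.94 (0.907). Ifitm3 stood at 5.79 on PBS replicate 1, against 6.50 to 6.57 on the other PBS arrays (0.920). Rsad2 probe 1 stood at 0.10 on AAV-GFP replicate 2, against -0.41 to -0.40 on the other AAV-GFP arrays (0.9746).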

How the results depend on the processing

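Each member gene was followed over the settings by its brightest probe only. In the comparisons of AAV-hGRB with AAV-GFP, with PBS and with the mean of both, these probes kept the sign of their difference under every setting fitted to more than 1 slide. None of these probes passed the threshold, except that of Mx2 with array weights against the mean of both control groups (1.64, limma adjusted p = 0.0439). The median of the members ran from 0.44 to 0.92 against AAV-GFP and from 0.53 to 1.13 against PBS, and the lowest values came with normexp background correction (0.53 against PBS and 0.46 against the mean of both, where 0.97 and 0.83 are reported). The count of all probes called against the mean of both control groups, reported as 1, was 2 with normexp and 88 with array weights. It was 0 with quantile scaling, median scaling, no filter, the stricter filter of 8 of 12 arrays, slide as a block and the replicate block. Leaving out 1 array gave 0 to 4. Against PBS array weights called 67 probes, where 0 are reported. The replicate block changed no other call. Within slide 5 alone, Bst2 stood at -0.08 against AAV-GFP and Rsad2 at -1.22 against PBS. Within slide 6, where replicate 3 is the only AAV-GFP array, Mx2 stood at -0.02 and Ifitm2 at 0.64 against AAV-GFP. Against the mean of both control groups, Rsad2 stood at -0.46 within slide 5 and Ifitm2 at 0.19 within slide 6. In AAV-GFP over PBS, where no member passed the threshold, signs turned: Mx1 to -0.034 with quantile scaling, -0.035 with slide as a block and -0.48 with array weights, Mx2 to -0.16 with array weights, and Ifitm2 to 0.0095 with median scaling and 0.31 with array weights. Leaving out 1 array gave -0.23 to 0.41 for Mx1, -0.12 to 0.55 for Mx2 and -0.14 to 0.21 for Ifitm2. Higher member genes without overlap numbered 0 to 1 in AAV-GFP over PBS and 1 to 2 against the mean of both control groups when 1 array was left out, and lower ones numbered 0 to 1 in AAV-hGRB over AAV-GFP and in AAV-GFP over PBS. The cause was not tested in these cases. The stricter filter removed Mx1, which was well above background on 7 of 12 arrays, so its low signal limits its values.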

Other observations

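The 1 probe that passed limma's threshold against the mean of both control groups, BC013672, lies outside the members and was named after its value was seen. Its log2 difference was 3.16 (limma adjusted p = 0.0465).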
